A study of Homo sapiens with 4 samples.

Results

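The AP-1 and immediate early genes examined here are 10 listed genes, namely the Fos genes FOS, FOSB, FOSL1 and FOSL2, the Jun genes JUN, JUNB and JUND, and EGR1, ATF3 and IER2. They were chosen by name, and each was matched through its Ensembl identifier to 1 symbol of GENCODE release 44. They are 10 of the 60564 gene identifiers in the count files and of the 22555 genes that passed the filter on low counts, which all 10 passed. RNA was sequenced from Elf1 cells, an established naïve human embryonic stem cell (ESC) line. In the 2-D condition the cells grew adherent on plastic coated with Matrigel, and in the 3-D condition single cells were enclosed in self-assembling PEG-8-SH/PEG-8-Acr scaffolds and kept there for 21 days. Per the methods, the line was maintained on mouse embryonic feeder cells and moved to feeder-free Matrigel plates before encapsulation. Both conditions used the same ESC expansion medium. The study's methods list FGF2, LIF, CHIR99021 (an inhibitor of the kinase GSK3) and a compound written there as PD03296501, which by its name appears to be the MEK inhibitor of naïve media. Each condition had 2 libraries from independent biological replicates of this 1 line.

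Immediate early genes are transcribed within minutes of a stimulus such as serum, growth factors, stretch or stress, without new protein synthesis. ERK and other MAP kinases switch them on through serum response factor (SRF), its ETS partners and CREB. Fos and Jun proteins pair through their leucine zippers into the transcription factor AP-1, which binds the DNA site TGACTCA, and Fos proteins need a Jun partner to bind. MEK, the kinase above ERK, is often inhibited in naïve ESC media, and FOS and EGR1 are classical readouts of ERK activity.

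Total counts ranged from 30114220 to 33833778 in the 2-D and from 18276147 to 21154409 in the 3-D libraries. Of these counts, 5.10% and 5.30% lay on mitochondrially encoded genes in the 2-D and 8.33% and 8.50% in the 3-D libraries. Values are CPM (the count of a gene scaled to the library total) normalized by the TMM method, fold changes set 3-D against 2-D grown cells, and ± gives the SD of the 2 libraries. Adjusted p-values come from the quasi-likelihood test in edgeR, adjusted by Benjamini and Hochberg over every gene tested. Pluripotency markers were present, with POU5F1 at 116 ± 0.939 CPM in 2-D and 120 ± 16.3 CPM in 3-D grown cells. Of 10 such markers 9 were tested and 0 were called by edgeR (3 at an unadjusted p below 0.05). DESeq2, which gave an adjusted p for 6 of them, also called 0. Of the naïve markers, KLF17 was at 0.703 ± 0.337 and 0.981 ± 0.126 CPM and DPPA5 at 0.123 ± 0.00966 and 0.0487 ± 0.0688 CPM, so these 2 were at or near 0. The others on the list were present, with TFCP2L1 at 23.0 ± 1.16 and 22.2 ± 0.0292, DNMT3L at 17.0 ± 0.685 and 16.2 ± 2.33 and DPPA3 at 6.72 ± 1.0 and 6.35 ± 0.857 CPM, and KLF4, from the list of immediate early genes, was at 9.32 ± 0.0817 and 9.91 ± 0.662 CPM.

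Stretches of promoters are shown here because some of the elements that make immediate early genes inducible lie in them. RefSeq promoter entries on GRCh38.p14 were matched for 9 of the 10 genes, with FOSL1 not among them. The 250 bases before each start were searched on both strands for the cyclic AMP response element TGACGTCA (CRE), its core TGACG, which lies within the CRE, the AP-1 site TGACTCA, the TATA box TATAAA and the CArG box, to which SRF binds. Capitals mark matches, and a core on the other strand reads CGTCA.

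EGR1, chr5:138465334-138465427, plus strand, shown for its pair of CArG boxes: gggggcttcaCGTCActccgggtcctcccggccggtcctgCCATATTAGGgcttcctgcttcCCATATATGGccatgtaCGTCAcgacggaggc
FOS, chr14:75278754-75278810, plus strand, shown for a CRE core upstream of a TATA box: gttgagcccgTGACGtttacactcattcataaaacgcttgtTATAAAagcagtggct
FOSB, chr19:45467926-45467981, plus strand, shown for the same pair of elements at a like distance: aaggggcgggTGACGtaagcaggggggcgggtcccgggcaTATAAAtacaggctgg
JUND, chr19:18281694-18281832, minus strand, shown for a full CRE: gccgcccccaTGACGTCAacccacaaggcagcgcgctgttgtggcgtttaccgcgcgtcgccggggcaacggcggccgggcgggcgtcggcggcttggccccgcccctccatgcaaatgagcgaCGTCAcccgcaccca

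The CRE core was found in 8 of the 9 genes with an entry, all except ATF3, and in 21.2% of all 35116 upstream windows of the same length. In FOS it lay from −64 to −60 and in FOSB from −60 to −56 relative to the start, with the TATA box from −33 to −28 and from −30 to −25. The full CRE was found in 1 of the 9 genes, JUND, from −200 to −193, and in 1.65% of all windows. The CArG box was found in 1 of the 9, EGR1, from −105 to −96 and again from −83 to −74, and in 1.16% of all windows. The letters of the TATA box were found in 4 of the 9 (FOS, FOSB, JUNB and the downstream start of ATF3) and in 10.7% of all windows. In JUNB they lay from −31 to −26, close to their place in FOS and FOSB. In ATF3 they lay from −230 to −225, far from that place. The AP-1 site was found in 0 of the 9 genes and in 4.2% of all windows. These matches describe letters within 250 bases and are not measured sites. Bases further upstream were not searched, so the lack of a match, as of a CArG box in FOS, does not show that a gene lacks the element. The windows were rich in G and C, from 62.0% in JUN to 74.8% in JUND, apart from the ATF3 entries at 49.2% and 44.8%, against a median of 58.0% over all windows.

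Which of these genes differ between adherent and scaffold culture was asked next. The answer was largely 1 gene: FOSL1 was higher in 3-D grown cells, by 1.42-fold (95% interval 1.25 to 1.6), and the other 9 did not pass the test. Of the 10 genes, 1 was called higher and 0 lower at an adjusted p below 0.05. Of all tested genes, 7.9% were called, 4.54% in the higher and 3.36% in the lower direction, so 1 of 10 is near the background. When libraries were scaled by their totals alone, the calls over all genes changed from 1024 higher and 758 lower to 514 higher and 1879 lower. At an unadjusted p below 0.05, 3 of the 10 genes passed, namely FOSL1, EGR1 and IER2. In bulk samples, fewer cells that express a gene and less RNA per cell cannot be told apart.

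**Figure D1:**
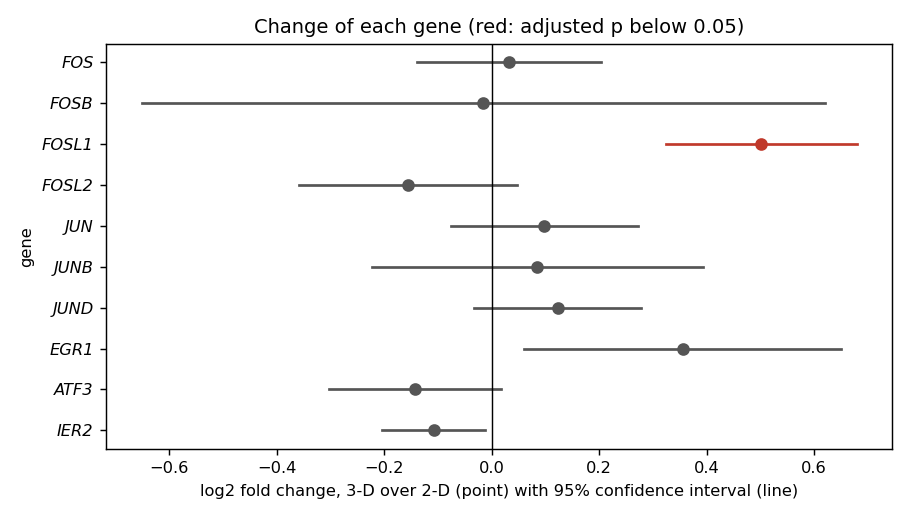
Log2 fold change, 3-D against 2-D, (x axis) for each of the 10 genes (y axis), with its 95% confidence interval from edgeR's quasi-likelihood fit on 2 libraries per condition. FOSL1, in red, is called at 0.50, and the other points lie between −0.16 (FOSL2) and 0.36 (EGR1).

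The log2 fold changes ranged from −0.16 to 0.50 with a median of 0.06, against a median of −0.00014 over all tested genes. Their median absolute value was 0.12, against 0.13 over all tested genes. The conditions did not overlap in 5 of the 10 genes, 2 higher (FOSL1 and EGR1) and 3 lower (FOSL2, ATF3 and IER2) in 3-D grown cells. This was true of 50.5% of all tested genes, so the share among the 10 is that of the background.

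**Figure D2:**
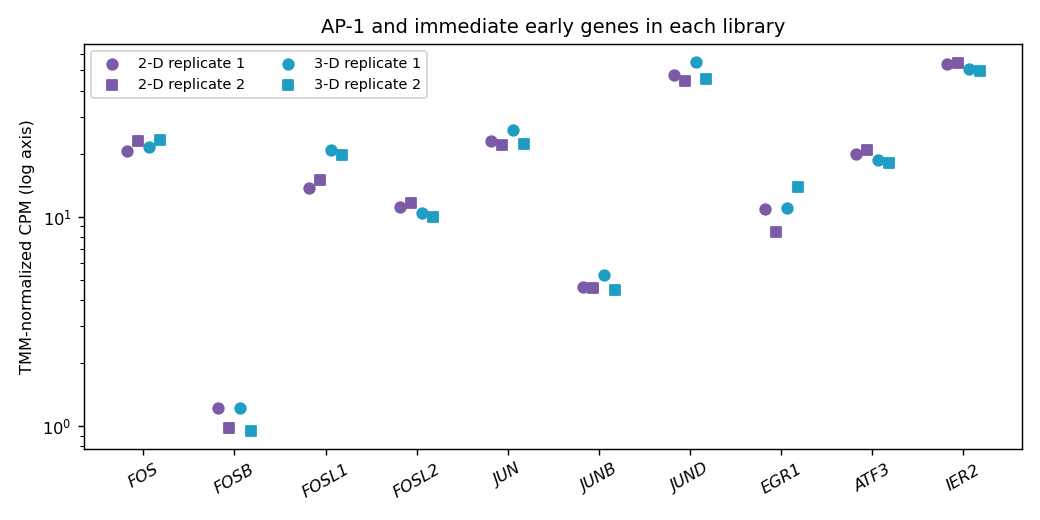
TMM-normalized CPM (y axis, log scale) of each gene (x axis) in the 4 libraries, where purple marks 2-D, blue marks 3-D, circles replicate 1 and squares replicate 2. The FOSL1 libraries separate by condition, from 13.7 and 15.0 CPM in 2-D to 20.8 and 19.8 CPM in 3-D, and the FOS libraries overlap.

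The Fos genes code for the AP-1 partners that cannot pair among themselves. FOSL1 codes for FRA1, a Fos protein that lacks the strong activation domain of FOS and is linked to cell migration and adhesion. FOSL1 lies on chromosome 11 from 65892049 to 65900573 (positions of genes are on hg38) on the minus strand and has 4 exons. It had 13.7 and 15.0 CPM in the 2-D and 20.8 and 19.8 CPM in the 3-D libraries. Both 3-D libraries lay above both 2-D libraries, and the gap between conditions was wider than that between replicates. The means were 14.4 ± 0.953 and 20.3 ± 0.688 CPM, or 0.50 on the log2 scale (standard error 0.08, edgeR, adjusted p = 0.0025). By p, it ranked 406th of the 22555 genes. FOSL1 was called under all 11 alternatives, with log2 fold changes from 0.43 to 0.57 and adjusted p from 1.6e-06 to 0.00766. FOSL1 is also a gene that the study names in its Wnt results, a choice made on these same libraries.

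FOS, the founding immediate early gene of the family, lies on chromosome 14 from 75278826 to 75282230 and has 4 exons. It had 20.7 and 23.0 CPM in the 2-D and 21.5 and 23.2 CPM in the 3-D libraries. The libraries of the conditions overlapped, and the replicates of each condition differed by more than the condition means. The log2 fold change was 0.03 (standard error 0.08, edgeR, adjusted p = 0.87), with a 95% interval of the fold from 0.909 to 1.15. The interval gives the FOS folds that remain possible with these libraries, and is not a limit of detection.

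FOSB, a close relative of FOS, was the scarcest member, with 17 to 42 counts per library. It lies on chromosome 19 from 45467995 to 45475179. It had 1.22 and 0.974 CPM in the 2-D and 1.22 and 0.948 CPM in the 3-D libraries, so the conditions overlapped almost fully. Its log2 fold change was −0.015 (95% interval −0.65 to 0.62), the widest interval of the 10, which allows folds from 0.637 to 1.54. FOSL2, which codes for FRA2, lies on chromosome 2 from 28392448 to 28417317. It had 11.1 and 11.7 CPM in the 2-D and 10.5 and 9.99 CPM in the 3-D libraries, without overlap. Its log2 fold change of −0.16 did not pass the test (standard error 0.09, edgeR, adjusted p = 0.384).

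The Jun genes code for proteins that pair with Fos, with ATF proteins or among themselves. The canonical transcript of each, the 1 that Ensembl takes to represent the gene, has 1 exon. For JUN the joined exons of all annotated transcripts, 3624 bases, do not fill the span of the gene. JUND, the member that is generally expressed without a stimulus, lies on chromosome 19 from 18279694 to 18281622. It had 47.7 and 44.5 CPM in the 2-D and 54.6 and 45.6 CPM in the 3-D libraries. The second 3-D library lay between the 2-D libraries, and the first lay above all others. The log2 fold change of JUND was 0.12 (standard error 0.07, edgeR, adjusted p = 0.365). It was 0.25 and called without 3-D replicate 2 (adjusted p = 0.00396) and −0.015 without 3-D replicate 1 (adjusted p = 0.933).

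JUN, the AP-1 gene that is activated by its own product, lies on chromosome 1 from 58776845 to 58784048. It had 23.1 and 22.0 CPM in the 2-D and 25.8 and 22.3 CPM in the 3-D libraries. JUNB, often a brake on JUN, lies on chromosome 19 from 12791486 to 12793315. It had 4.62 and 4.58 CPM in the 2-D and 5.25 and 4.46 CPM in the 3-D libraries. In each of the 3 Jun genes, 3-D replicate 1 was the highest of the 4 libraries and 3-D replicate 2 lay within or below the 2-D libraries. The log2 fold changes of JUN and JUNB were 0.10 and 0.08 (edgeR, adjusted p = 0.55 and 0.803), and both were below 0 without 3-D replicate 1, at −0.013 and −0.042. The 95% intervals of the fold ran from 0.949 to 1.21 for JUN and from 0.857 to 1.31 for JUNB.

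Levels can be compared between genes only per length, here as CPM per kilobase of exon. The length joined the exons of all annotated transcripts of a gene, 3186 bases for FOS and 1887 for FOSL1. It can exceed that of the transcript mainly expressed, so the order of the genes depends on it. On this scale JUND was the most abundant member, with a mean over the 4 libraries of 24.9 and a range of 23.1 to 28.3, followed by IER2 with 16.9 (16.1 to 17.7). FOSL1 had 9.18 (7.25 to 11.0), FOS 6.94 (6.50 to 7.28) and JUN 6.43 (6.06 to 7.13). The ranges of FOSL1 and FOS overlapped, as did those of FOS and JUN. ATF3 had 4.85 (4.53 to 5.19), EGR1 3.52 (2.69 to 4.43), JUNB 2.58 (2.44 to 2.87), FOSL2 1.51 (1.39 to 1.63) and FOSB 0.196 (0.171 to 0.220), where only the ranges of EGR1 and JUNB overlapped between neighbours.

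The make-up of each family is described by shares of its summed level. FOSL1 made up 46.7% and 46.9% of the summed Fos level per kilobase in the 2-D and 56.6% and 54.3% in the 3-D libraries. The share of FOS was 41.9% and 42.5% in the 2-D and 34.7% and 37.7% in the 3-D libraries. FOSL2 went from 9.80% ± 0.287 to 7.36% ± 0.216 and FOSB from 1.22% ± 0.271 to 1.0% ± 0.172. Shares within a family move against each other, and the FOS level itself was 6.86 ± 0.511 in 2-D and 7.02 ± 0.377 CPM per kilobase in 3-D grown cells. The summed Fos level was 16.3 ± 1.04 in 2-D and 19.4 ± 0.0686 CPM per kilobase in 3-D grown cells. JUND held 73.2% ± 0.452 and 73.6% ± 0.395 of the summed Jun level, JUN 19.1% ± 0.164 and 18.8% ± 0.346, and JUNB 7.70% ± 0.287 and 7.53% ± 0.0489. The ratio of FOSL1 to FOS per kilobase was 1.12 and 1.10 in the 2-D and 1.63 and 1.44 in the 3-D libraries. These shares and ratios are descriptions, since 2 libraries per condition allow no useful exact test of a single value. Their size, and whether FOSL1 or FOS is the larger in 2-D grown cells, also depends on the exon lengths used.

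**Figure D3:**
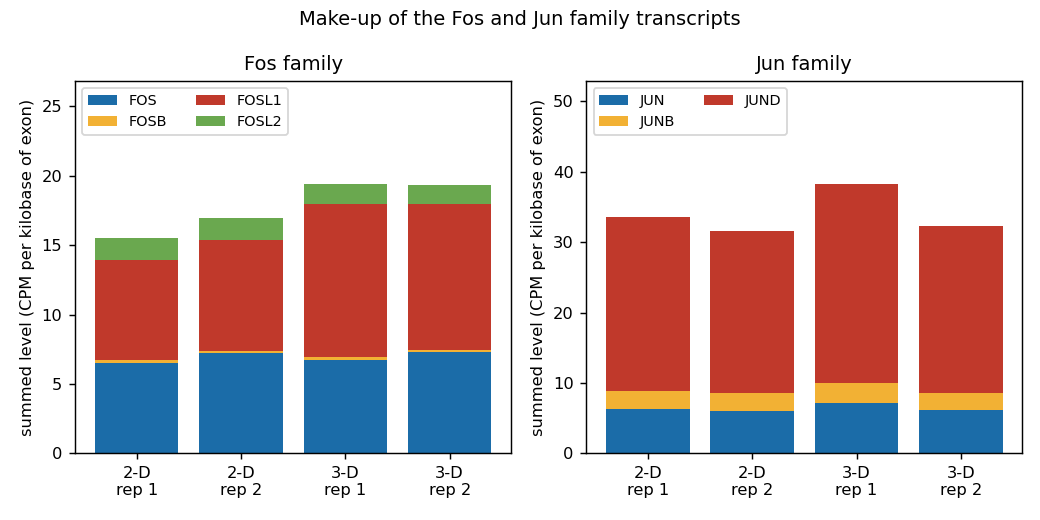
Stacked levels of the Fos genes (left) and Jun genes (right) in CPM per kilobase of exon (y axis) in each of the 4 libraries (x axis). The red FOSL1 part grows from 7.25 and 7.96 in 2-D to 11.0 and 10.5 in 3-D, and in the Jun family JUND is the largest part of every bar.

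EGR1, a zinc finger factor outside the AP-1 family and a direct target of SRF and ERK, lies on chromosome 5 from 138465479 to 138469303. It had 10.9 and 8.44 CPM in the 2-D and 11.0 and 13.9 CPM in the 3-D libraries. The lower 3-D library exceeded the higher 2-D library by a small margin, and the spread within each condition was wide. The means were 9.66 ± 1.73 and 12.4 ± 2.05 CPM, or 0.36 on the log2 scale (standard error 0.14, edgeR, adjusted p = 0.146). The difference was called without 2-D replicate 1 (0.55, adjusted p = 0.0036) and without 3-D replicate 1 (0.52, adjusted p = 0.00262). It shrank to 0.19 without 2-D replicate 2 and to 0.18 without 3-D replicate 2 (adjusted p = 0.613 and 0.445), so the call depends on which library is left out. EGR1 was also called when genes with low counts were kept in the fit (adjusted p = 0.0204).

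ATF3, a stress-induced partner of Jun that represses many of its targets, lies on chromosome 1 from 212565334 to 212620777. It had 19.9 and 20.8 CPM in the 2-D and 18.7 and 18.1 CPM in the 3-D libraries. Both 3-D libraries lay below both 2-D libraries, but the log2 fold change of −0.14 did not pass the test (standard error 0.07, edgeR, adjusted p = 0.297). IER2, a growth-factor-induced nuclear protein, lies on chromosome 19 from 13150411 to 13154911. It had 53.7 and 54.5 CPM in the 2-D and 50.8 and 49.5 CPM in the 3-D libraries, without overlap. Its log2 fold change of −0.11 did not pass the test (standard error 0.04, edgeR, adjusted p = 0.174), and was −0.17 and called with library size as the only scaling (adjusted p = 0.0276).

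Some of these genes share sequence or ground with others. A stretch of 237 bases of the IER2 transcript matched chromosome 9 with at least 98% identity, and no other member had such a match of at least 150 bases outside its own locus. The IER2 gene also overlaps 2 noncoding genes on the opposite strand, of which ENSG00000267598 had 893 and 785 counts in the 2-D and 553 and 505 in the 3-D libraries. ENSG00000287296 had 144 and 146 counts in the 2-D and 44 and 61 in the 3-D libraries, or −0.70 on the log2 scale (standard error 0.20, edgeR, adjusted p = 0.0508). FOSB overlaps ERCC1 on the opposite strand, with 1195 to 2005 counts per library, and ERCC1 was called higher in 3-D grown cells, by 0.27 on the log2 scale (standard error 0.04, edgeR, adjusted p = 0.00255). JUNB overlaps HOOK2, with 520 to 972 counts. Since it is not stated whether counting used the strand, reads of these pairs cannot be told apart for certain, and the values of FOSB, JUNB and IER2 are uncertain to that extent. FOSL2 overlaps FOSL2-AS1 and ENSG00000270640, with 1 to 6 counts per library. FOS, FOSL1, JUN, JUND, EGR1 and ATF3 overlapped no other gene.

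The pattern of FOS over the libraries was flat, and many genes shared it. Of 18054 other genes with a mean log2 CPM above 0, 7549 lay within 0.1 of FOS, as the root mean square distance of centred log2 CPM over the 4 libraries. The 5 nearest, LATS2, C15orf40, GNB3, ENSG00000255389 and ISOC2, lay at 0.00285, 0.00664, 0.00780, 0.00819 and 0.00981.

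Further immediate early genes, induced by the same stimuli, were examined as a class. Of 26 further genes of this class, 24 were tested, 12 were higher and 12 lower, and 0 were called by edgeR, DESeq2 or limma, and the median log2 change was 0.01. At an unadjusted p below 0.05, IER5, MYC, ZFP36, MCL1 and TRIB1 passed, singled out after their values were seen, at −0.27, 0.15, 0.29, −0.08 and 0.10 (edgeR, adjusted p = 0.0807, 0.129, 0.207, 0.153 and 0.195). DESeq2 gave an adjusted p for 12 of the 24. With scaling by totals, 2 of the 24 were called lower and 0 higher. The summed level of the list was 988 to 991 CPM in the 2-D and 968 to 983 CPM in the 3-D libraries.

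Upstream of these genes, ERK, JNK and p38 kinases pass the signal on. Of 22 MAP kinases, their activators and RSK and MSK kinases tested, 1 was called higher and 4 lower in 3-D, and the median log2 change was −0.05. The called share was 22.7%, against 7.9% of all tested genes. The share over all tested genes, here and for the lists below, is not matched to a list by expression level. Of the 22555 genes tested, 10957 had a mean log2 CPM above 3. MAP2K7, an activator of JNK, was higher by 0.24 on the log2 scale, as are the values of the other lists (edgeR, adjusted p = 0.0235). MAPK9 and MAPK10, which are JNK genes, MAPK14, which codes for p38α, and MAP2K1, which codes for MEK1, were lower, with log2 fold changes of −0.15, −0.37, −0.14 and −0.15 (edgeR, adjusted p = 0.0307, 0.0495, 0.0386 and 0.0432). MAPK10 falls outside the naming rule and was added after its values were seen. DESeq2, which gave an adjusted p for 19 of the 22, called none of these kinases, and limma called 1 higher and 0 lower. With scaling by totals 0 were called higher and 6 lower. RNA levels of kinases do not measure their activity.

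Genes that act back on ERK or other MAP kinases were also examined, and some of them are used as readouts of ERK activity. Of 15 such genes, 14 were tested, 10 were higher and 4 lower, and the median log2 change was 0.10. Of the 14, 0 were called by edgeR, by limma or by DESeq2, which gave an adjusted p for 10 of them. At an unadjusted p below 0.05, DUSP2, DUSP6, DUSP7 and SPRY4 passed, singled out after their values were seen. Their log2 changes were 1.14, 0.49, 0.20 and 0.10 (edgeR, adjusted p = 0.203, 0.187, 0.106 and 0.062). DUSP2 stayed under 1 CPM in every library, with means of 0.301 ± 0.150 in 2-D and 0.690 ± 0.287 in 3-D grown cells. SRF and its 6 listed cofactors were all tested, 6 of the 7 were higher and the median was 0.05. Of the 7, 0 were called by edgeR, by limma or by DESeq2, which gave an adjusted p for 6 of them. With scaling by totals the median was −0.019 and 1 was called lower. At an unadjusted p below 0.05 none of these 7 passed, the lowest being 0.0553 for MYOCD.

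SRF also has targets that respond to actin through its myocardin-related cofactors, and most of these were called higher in 3-D grown cells after TMM scaling. Of 12 such genes, all tested, 8 were called higher and 0 lower in 3-D, and the median log2 change was 0.16. ACTB, which codes for β-actin, had 4312 ± 14.1 CPM in 2-D and 5194 ± 125 CPM in 3-D grown cells, or 0.27 on the log2 scale (edgeR, adjusted p = 2.02e-04). MYL9, a myosin light chain, was higher by 0.28, CNN1, a calponin, by 0.36 and ZYX, a focal adhesion protein, by 0.25 (edgeR, adjusted p = 2.33e-04, 0.00729 and 0.00746). DESeq2 and limma also called 8 higher and 0 lower, and with scaling by totals 4 were called higher and 2 lower. The called share of 66.7% stands beside 7.9% over all tested genes, and the actin genes were already known from earlier results of these data.

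Among 20 known AP-1 targets, 16 were tested, 4 were called higher and 0 lower, and the median log2 change was 0.12. The called share was 25%, against 7.9% of all tested genes, and DESeq2, limma and scaling by totals each also gave 4 higher and 0 lower. TGFB1 was higher by 0.35, SPP1 by 0.20, CD44 by 0.19 and FN1 by 0.18 (edgeR, adjusted p = 7.04e-04, 0.00157, 0.00181 and 0.0044). These code for a growth factor, a matrix phosphoprotein, a hyaluronan receptor and fibronectin, and all have other regulators besides AP-1. Of the 20 genes, 5 stayed under 1 CPM in every library, among them the proteases MMP1, MMP3 and MMP13.

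Of 27 other basic leucine zipper genes, which include possible partners of Fos and Jun, 26 were tested, 3 were called higher and 1 lower. The called share was 15.4%, against 7.9% of all tested genes, which are not matched to this list by expression level. With scaling by totals, 2 were called higher and 5 lower, and DESeq2, which gave an adjusted p for 18 of them, called 2 higher and 0 lower. NFE2L1, which drives proteasome genes, was higher by 0.17, ATF5 by 0.33 and ATF4, the effector of the integrated stress response, by 0.14, and CEBPG was lower, at −0.16 (edgeR, adjusted p = 0.00374, 0.0158, 0.0161 and 0.0192). Of 10 genes of the integrated stress response, which also induces ATF3, ATF4 and PPP1R15A were called higher and PSAT1 lower, with PPP1R15A at 0.26 and PSAT1 at −0.19 (edgeR, adjusted p = 0.0478 and 0.00183). These are 30% of the list, against 7.9% of all tested genes, and with scaling by totals 0 were called higher and 2 lower, and with DESeq2 1 higher and 1 lower. Of the 10 stress response genes, 4 were higher and 6 lower, and the median log2 change was −0.05. DDIT3, singled out after its values were seen, was at −0.40 and not called (edgeR, adjusted p = 0.0733). Of 8 tested heat shock genes, HSPA8 and HSP90AA1 were called higher, at 0.20 and 0.13, and HSPE1, the mitochondrial co-chaperonin, lower, at −0.54 (edgeR, adjusted p = 0.00104, 0.0324 and 5.13e-06). These are 37.5% of the tested list, against 7.9% of all tested genes, and with scaling by totals 1 was called higher and 1 lower.

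**Figure D4:**
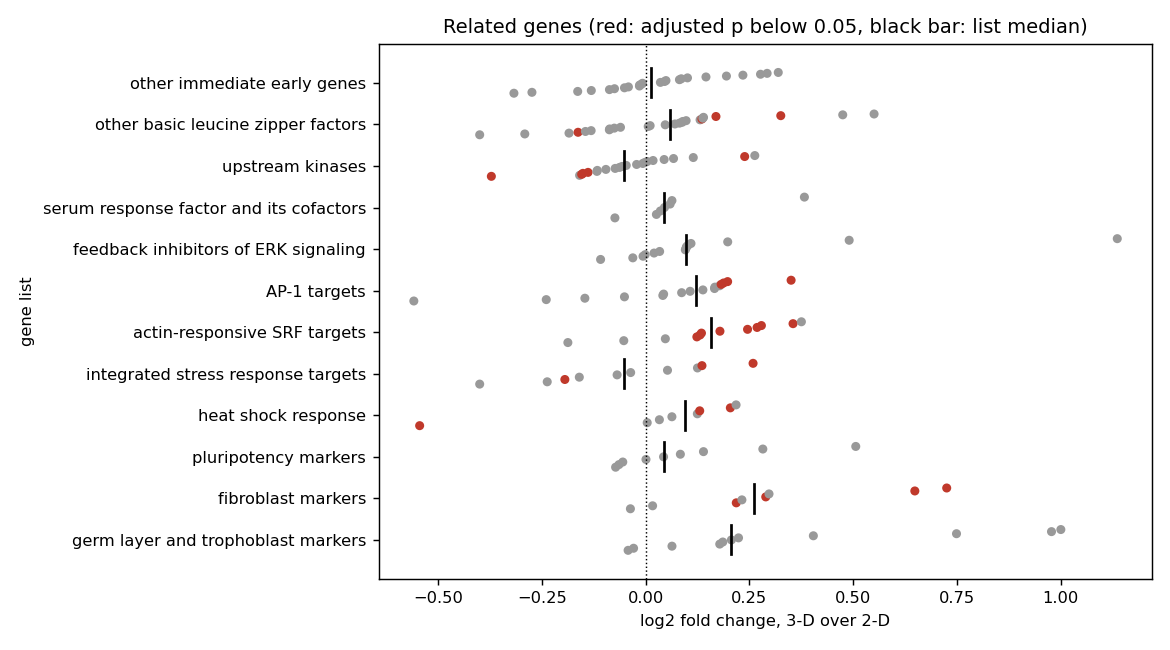
Log2 fold change, 3-D against 2-D, (x axis) of each tested gene of 12 lists (y axis), with called genes in red and the list median as a black bar. No gene of the other immediate early list is red, whereas 8 of the 12 actin-responsive SRF targets are.

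Markers of other cells were checked, since cells other than ESCs also express Fos and Jun genes. Of 10 fibroblast markers, 8 were tested and 4 were called higher in 3-D grown cells, namely COL3A1, COL1A1, THY1 and POSTN, at 0.73, 0.29, 0.22 and 0.65 (edgeR, adjusted p = 7.04e-04, 7.79e-04, 0.00453 and 0.0181). The called share was 50%, against 7.9% of all tested genes. COL1A2, the most abundant of the list at 321 ± 6.04 CPM in 2-D and 313 ± 16.9 CPM in 3-D grown cells, had a log2 change of −0.037 (edgeR, adjusted p = 0.649), and PDGFRB one of 0.017 (adjusted p = 0.961). The summed level of the list was 539 to 547 CPM in the 2-D and 559 to 609 CPM in the 3-D libraries, and DCN and LUM stayed under 1 CPM in every library. Of 16 germ layer and trophoblast markers, 11 were tested and 0 were called by edgeR (3 at an unadjusted p below 0.05), the lowest adjusted p being 0.0516 for GATA6. NEUROD1 was at 0 and 6 more stayed under 1 CPM in every library, with summed levels of 76.5 to 77.4 CPM in 2-D and 83.7 to 84.8 CPM in 3-D grown cells. A place on these lists does not show that a transcript came from cells other than ESCs, which bulk RNA cannot tell. THY1, for one, was at 75.5 ± 0.425 CPM in 2-D and 87.9 ± 4.40 CPM in 3-D grown cells. The part of these markers in the FOSL1 result was not tested.

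**Figure D5:**
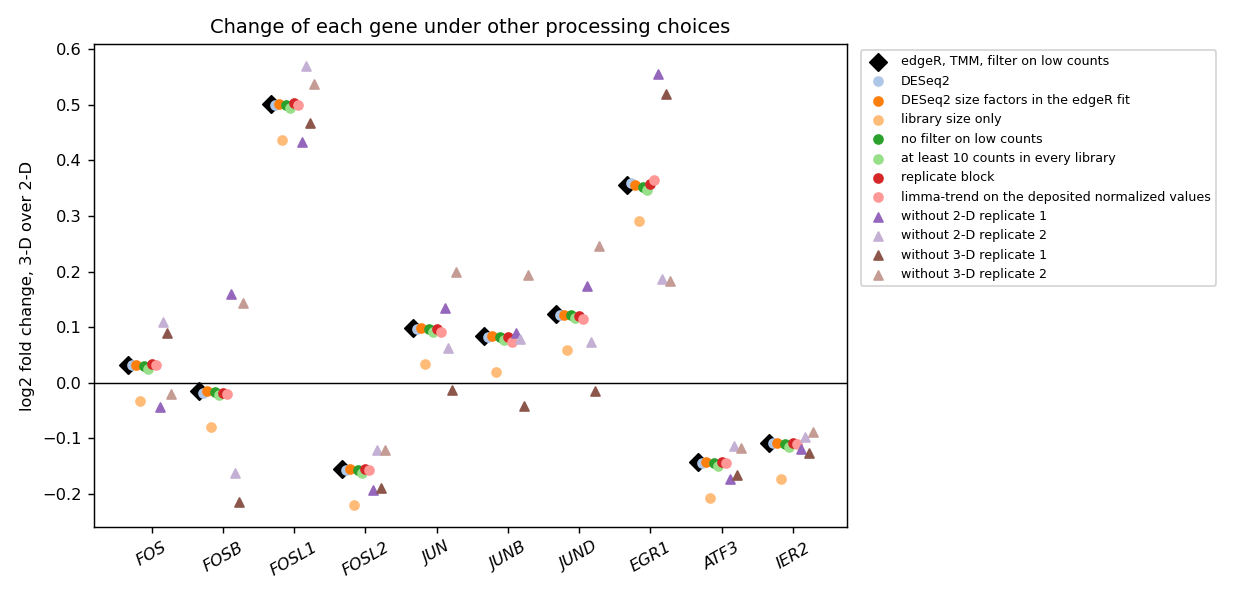
Log2 fold change, 3-D against 2-D, (y axis) of each gene (x axis) in the edgeR fit (black diamonds), under other processing choices (circles) and with 1 library left out (triangles). FOSL1 stays between 0.43 and 0.57, EGR1 spreads from 0.18 to 0.55, and FOS, FOSB, JUN, JUNB and JUND have values on both sides of 0.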

How the data were processed

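Total RNA of Elf1 cells was depleted of ribosomal RNA (KAPA RNA HyperPrep with RiboErase) and sequenced with paired ends. Per the labels and the paper, the authors trimmed reads with Trim Galore 0.6.3, mapped them to hg38 with HISAT2 2.1.0 and assigned them to GENCODE release 30 genes with featureCounts 1.6.4. The authors deposited raw counts per gene, without normalization and without pooling of replicates. They also deposited a normalized signal, which is the count over 1 DESeq2 size factor per library, beside their own test results, which were not used.

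Symbols, positions, exon lengths and exon counts came from GENCODE release 44, which matched 60295 of 60564 identifiers. Exon counts are those of the Ensembl canonical transcript of each gene. Counts were analysed with edgeR 4.0.16 (TMM, its filter on low counts, quasi-likelihood test, condition alone) in R 4.3.3, and a gene with a Benjamini-Hochberg adjusted p below 0.05 was called. Standard errors were derived from the log2 change and the F statistic. The test was checked on simulated counts. A first criterion, recovery over all expression levels, was not met with every random seed, and it was replaced, after this was seen, by unbiased estimates, few false calls and recovery of well-expressed genes. Power was limited for scarce genes, so that a scarce gene not called may still differ. Replicates differed by more than sampling noise (chi-square over degrees of freedom 2.27 in 2-D and 3.92 in 3-D). P-values set the difference between conditions against the spread between replicates of these libraries, which edgeR estimates with information shared over genes.

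Alternatives were DESeq2 1.42.0, other scalings and filters, a replicate block, limma-trend (limma 3.58.1) on log2 of the deposited signal plus 1, and each library left out. Copies were sought with blastn 2.17.0. The 10 genes and the 12 lists, the latter written from general knowledge, were chosen with earlier results of these data known. Named were all 10 genes, up to 4 called genes of each list by smallest p, and the 5 genes nearest to FOS, with other names marked. Protein sequences were not used here.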

Additional observations from a re-analysis of the deposited data

How the results depend on the processing

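FOSL1 was called under all 11 alternatives. DESeq2 called 795 genes in all and FOSL1 among the 10. It gave an adjusted p for 10299 genes, with FOSB and JUNB not among them. Library size as the only scaling called 2 of the 10 (FOSL1 and IER2) and turned FOS to −0.032, and keeping genes with low counts called 2 (FOSL1 and EGR1). Whether libraries of equal replicate number were paired is not stated. The replicate differences of the conditions were almost uncorrelated over all tested genes (correlation −0.0079), which cannot settle it. With a replicate block 2167 genes, 1 of the 10 and 32 of the related list genes were called, against 1782, 1 and 30.

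With each library left out, in fits that assume that a lone library varies like those of the other condition, 974 to 2643 genes, 1 to 2 of the 10 and 18 to 36 list genes were called. The log2 fold change of FOS ranged from −0.044 (without 2-D replicate 1) to 0.11, being −0.020 without 3-D replicate 2, and that of FOSB from −0.21 to 0.16, being 0.14 without 3-D replicate 2. Those of JUN, JUNB and JUND ranged from −0.013, −0.042 and −0.015 (without 3-D replicate 1) to 0.20, 0.19 and 0.25 (without 3-D replicate 2). The cause of these changes was not tested.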
